A study of Homo sapiens with 8 samples.

Results

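The comparison described here set the input RNA of SW1990 cells, a pancreatic cancer cell line, against the input RNA of 3 other cancer cell lines. These were DU145 cells from prostate cancer, HCT116 cells from colon cancer, and Hep3B cells from hepatocellular carcinoma. Input RNA is the RNA of a cell lysate before immunoprecipitation, and all 4 cell lines were used as cultured, with no treatment or genetic change named in the labels. The sample titles and the study call the liver line 3B or Hep3B, while its cell line label reads Huh7, and it is called Hep3B here. From the same lines, RNA that came down with an antibody to RPS6, which is part of the small subunit of the ribosome, had been sequenced as well (RNA immunoprecipitation, RIP), and this RIP library served as a second look at each gene. Each line had 1 input and 1 RIP library, so no group has a replicate, and each tumor type is represented by 1 established line.

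Genes were included when they had at least 1 FPKM (the number of fragments scaled to the length of the transcript and to the depth of the library) in any of the 4 inputs. This gave 20367 of the 57756 genes listed, called expressed genes in what follows, of which 15509 reached 1 FPKM in SW1990 cells. RefSeq lists 13490 of them as protein coding and 610 as long noncoding. Depth was similar among the inputs, with between 35796159 fragments in Hep3B and 54209614 in DU145 cells, and 37068533 in SW1990 cells. Values of SW1990 and DU145 cells come from 1 table and those of HCT116 and Hep3B cells from another. The authors normalized both tables separately, so levels set across them depend on both normalizations. The median difference over protein-coding genes between SW1990 cells and another line was 0.01 on the log2(FPKM + 1) scale against DU145, 0.08 against HCT116, and 0.15 against Hep3B cells. In this text 4 FPKM values in a row stand for SW1990 first and then for DU145, HCT116, and Hep3B cells, and they are input values unless RIP is named.

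A carcinoma cell line often keeps part of the gene expression program of the epithelium it came from. In the gut tube, transcription factors of the homeobox families set regional identity. PDX1 marks the pancreas and duodenum, CDX2 the intestine, and the HOX clusters the position along the body axis. Ductal pancreatic tumors are commonly described as classical, with mucins, trefoil factors, and other secretory genes, or basal-like, with squamous keratins. They often lose CDKN2A, a cell cycle inhibitor. Wnt signaling, in which beta-catenin and TCF factors activate targets such as AXIN2, ASCL2, and LGR5, maintains intestinal crypt cells.

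SW1990 cells stood apart from the other lines in genes that included the lineage factors CDX2 and PDX1, Wnt targets such as AXIN2, and HOX genes on the high side. On the low side these included CDKN2A, the fatty acid elongase ELOVL5, and the creatine kinase CKB. A gene was called high when its FPKM + 1 was at least 4-fold above that of each other input, and low when it was at least 4-fold below each. Of the 20367 expressed genes, 306 were high (1.5%) and 113 were low (0.555%). Another 5788 lay above all 3 other inputs by less, 3689 lay below all 3 by less, and 10471 lay between the other inputs or level with one. Against single lines, 985 genes lay at least 4-fold above DU145 cells (4.84%) and 1153 below (5.66%). Against HCT116 cells 846 lay above (4.15%) and 667 below (3.27%), and against Hep3B cells 1460 above (7.17%) and 1464 below (7.19%). By the rule against each other input, DU145 cells had 424 high (2.08%) and 65 low genes (0.319%), HCT116 cells 228 (1.12%) and 116 (0.570%), and Hep3B cells 697 (3.42%) and 276 (1.36%). With 1 library per line no test across genes is possible, and an exact permutation of 1 library against 3 cannot give a p below 0.25, so the calls describe these libraries only. In RNA from bulk cells, fewer cells of a kind and less RNA per cell cannot be told apart.

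Protein-coding genes made up 107 of the high calls, 0.793% of the 13490 expressed, and 85 of the low calls, 0.630%. The balance of both directions depended on the scale. Estimated counts scaled to depth only gave 141 high and 172 low protein-coding genes (204 and 191 over all expressed genes), and a pseudocount of 0.1 FPKM gave 213 and 247. The remaining high calls included 10 long noncoding RNAs, 43 pseudogenes, 15 snoRNA names, 13 miRNA names, and 113 genes with no RefSeq symbol. Many of these rest on few reads. In SW1990 cells, 101 of the 306 high genes had under 10 fragments and 76 had under 2, while only 1 of the 107 protein-coding genes had under 10. That gene, listed as LSP1 on chromosome 13, had 1 fragment. Near the 4-fold limit, 24 protein-coding genes were high by under 5-fold and 89 stayed outside at 3-fold to under 4-fold. On the low side these numbers were 25 and 56.

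The RIP libraries gave the same direction for nearly all protein-coding calls. SW1990 RIP lay above every other RIP for 106 of the 107 high genes, against 24.4% of all expressed genes, and by at least 4-fold for 81, against 1.08%. It lay below every other RIP for 85 of the 85 low genes, against 15.5% of all expressed genes, and by at least 4-fold for 71, against 0.638%. The share was smaller for weakly measured RNA and for some abundant noncoding RNAs. Among the 101 high genes with under 10 fragments, RIP lay above all others for 14. Of 9 low genes with RN7SL names, copies or relatives of the RNA of the signal recognition particle, RIP lay below all others for 5 and by 4-fold for none. RN7SL1 had 6254 FPKM in SW1990 cells, 76831 in DU145, 84434 in HCT116, and 206166 in Hep3B in the inputs and 227 FPKM in SW1990 cells, 1275 in DU145, 909 in HCT116, and 497 in Hep3B in RIP. RMRP and RPPH1, the RNAs of RNase MRP and RNase P, were low as well, at 2169 FPKM against 9918, 34761, and 221096 and 9592 FPKM against 40852, 51748, and 195131, but SW1990 RIP was not below every other RIP. The abundant noncoding RNA of the SW1990 input thus differed from that of the other inputs, and the part of this in the FPKM of other genes was not tested. In the plot of input against RIP differences the called genes fall along the diagonal in the upper right and lower left of the plot. Input and RIP of a line are libraries of the same cells, so this repeats the measurement and not the culture.

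**Figure D1:**
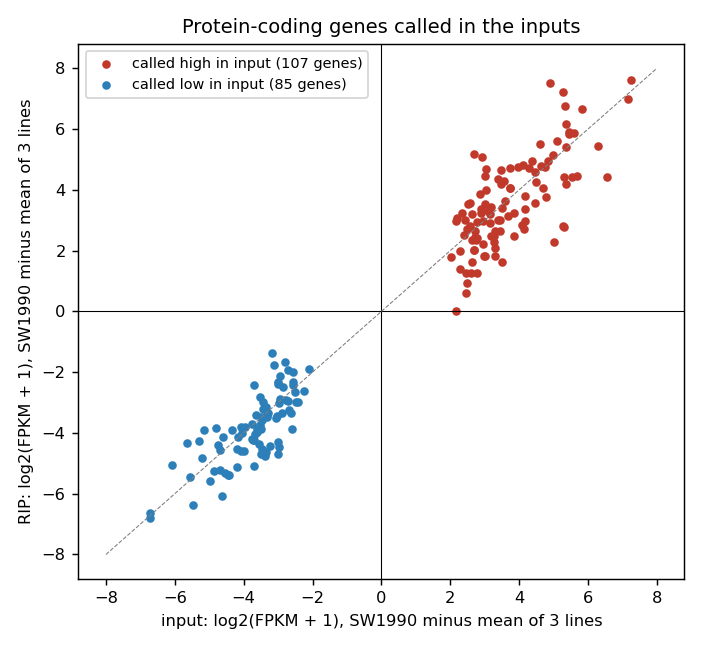
Difference between SW1990 cells and the mean of the 3 other lines in the inputs (x axis) and in the RIP libraries (y axis), both on the log2(FPKM + 1) scale, for the 107 high and 85 low protein-coding genes, 1 point per gene. The dashed line marks equal differences, and 106 high genes lie above 0 in RIP while all 85 low genes lie below 0.

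CDX2, the homeobox factor that specifies intestinal epithelium, was among the high genes. It stood at 86.6 FPKM in SW1990 cells, 0 in DU145, 6.25 in HCT116, and 0.374 in Hep3B. The 95% exact Poisson interval, which covers counting error only, was 85 to 88.1 FPKM in SW1990 and 5.91 to 6.61 in HCT116 cells. CDX2 RIP values were 189 FPKM in SW1990 cells, 0.016 in DU145, 8.15 in HCT116, and 1.05 in Hep3B, so both kinds of library placed SW1990 first and HCT116 second. In the deposited tables, which use hg19, CDX2 (ENSG00000165556) lies on chromosome 13 from 28536273 to 28545276. ASCL2, a basic helix-loop-helix factor of intestinal crypt stem cells, had the largest gap of all protein-coding genes, with 153 FPKM in SW1990 cells, 0 in DU145, 0 in HCT116, and 0.0401 in Hep3B. No fragment of ASCL2 was found in the DU145 and HCT116 inputs and 2 in that of Hep3B cells, against 8261 in SW1990 cells. Its RIP value in SW1990 cells was 197 FPKM, and it was listed at 0 in the other 3 RIP libraries.

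On the FPKM + 1 scale, CDX2 and ASCL2 were the only genes of a list of intestinal markers past 4-fold against each line. Of its 30 genes, 14 were expressed in some input, 2 were high (CDX2 and ASCL2), and none was low. The median log2 difference from the mean of the other lines was 0.18, beside 0.06 over all expressed protein-coding genes. With a pseudocount of 0.1 FPKM the intestinal median was 1.41, so it depended on this setting. CDH17, an intestinal cadherin, stood at 2.97 FPKM in SW1990 cells, 0.0137 in DU145, 0.0242 in HCT116, and 0 in Hep3B. Villin (VIL1) reached 4.72 FPKM against 0.00858, 0, and 151, and the crypt receptor LGR5 3.36 FPKM against 0, 0, and 18.4, so both were highest in Hep3B cells. KRT20, MUC2, GUCY2C, and CDX1, markers of differentiated intestinal epithelium or of its secretory cells, stayed under 1 FPKM in all 4 inputs.

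The pancreatic label was checked against pancreatic markers, and they gave a mixed picture. Of 20 duct markers, 17 were expressed in some input and 15 in SW1990 cells, 1 was high (PDX1), and none was low, with a median difference of 0.26. PDX1, the pancreatic and duodenal homeobox factor, had 12.7 FPKM in SW1990 cells, 0.29 in DU145, 1.28 in HCT116, and 0 in Hep3B. GATA6, a factor of the classical tumor type, had 16.6 FPKM against 0.83, 2.09, and 4.4, and SOX9, a duct progenitor factor, had 60.6 FPKM against 1.76, 28.9, and 32. Both were highest in SW1990 cells by less than 4-fold over the next line. The simple keratins were abundant in all 4 lines, with 531 FPKM against 95.4, 457, and 376 for KRT8, 756 FPKM against 104, 519, and 329 for KRT18, and 229 FPKM against 85.8, 570.3, and 141 for KRT19. KRT7, however, which ductal tumors commonly carry, was at 3.17 FPKM against 254, 16.2, and 1.96, and MUC1, the main membrane mucin of duct cells, was at 1.16 FPKM against 76.6, 1.14, and 0.982. CFTR, the chloride channel of duct cells, was under 1 FPKM in all 4 inputs. For KRT7 and MUC1 SW1990 cells thus lay far below DU145 cells, which are of prostate origin.

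Many classical and basal-like tumor genes were under 1 FPKM in every line, while the expressed classical genes leaned towards SW1990 cells. On the list of 24 classical genes, 9 were expressed in some input and 6 in SW1990 cells, and 7 were at 0 there. TSPAN8, a tetraspanin, had 95.3 FPKM in SW1990 cells, 0 in DU145, 0 in HCT116, and 8.11 in Hep3B, and AGR2, a protein disulfide isomerase of secretory cells, had 39.8 FPKM against 0, 0, and 0.193. Both were high, and PRR15L was highest in SW1990 cells at 12.8 FPKM against 0.148, 0.335, and 4.76. TFF1, TFF2, CTSE, CEACAM6, and REG4 stayed under 1 FPKM in every input. On the basal-like list, 15 of 25 genes were expressed in some input and 12 in SW1990 cells, and 7 were at 0 there. TNS4, a focal adhesion protein, was the only high one (39.5 FPKM against 0.172, 6.55, and 0.0401), and none was low. Of the 15, 4 lay above all 3 other lines and 2 below all 3. The basal-like list summed to 199 FPKM against 482, 242, and 49.3, and the classical list to 158 FPKM against 3.23, 2.67, and 45.9. KRT6A, SERPINB3, and SERPINB4 were under 1 FPKM throughout. Among 16 tumor antigens, 15 of them in the tables, mesothelin (MSLN) had 10.6 FPKM against 1.18, 3.42, and 0.648 and LCN2, a secreted iron carrier, had 24.7 FPKM against 0.921, 2.0, and 0, the only high one. MUC4, MUC16, CEACAM5, and CLDN18 were under 1 FPKM in every input, and S100P had 5.19 FPKM against 0, 0.696, and 5.8. The classical and antigen medians were 1.26 and 1.24, and the basal-like median was -0.17. Acinar genes (3 of 18 expressed), endocrine genes (4 of 18), and gastric genes (3 of 15) had no high or low member. Their medians were 0.41, -0.21, and -0.63. The acinar factor BHLHA15 had 2.5 FPKM in SW1990 cells and trypsinogen (PRSS1) 1.84. Among the pancreatic markers, PDX1, GATA6, SOX9, AGR2, and TSPAN8 were thus highest in SW1990 cells. KRT7 and MUC1 were highest in DU145 cells, and CFTR was under 1 FPKM in every input. The 20 duct markers summed to 1730 FPKM in SW1990, 723 in DU145, 1712 in HCT116, and 1693 in Hep3B cells. In SW1990 and HCT116 cells most of this sum came from the simple keratins KRT8, KRT18, and KRT19. Of the 9 expressed classical genes, 5 lay above all 3 other lines (29.9% of all expressed genes did). None lay below all 3 (18.7% of all expressed genes did). The other 15 classical genes were under 1 FPKM in every input.

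**Figure D2:**
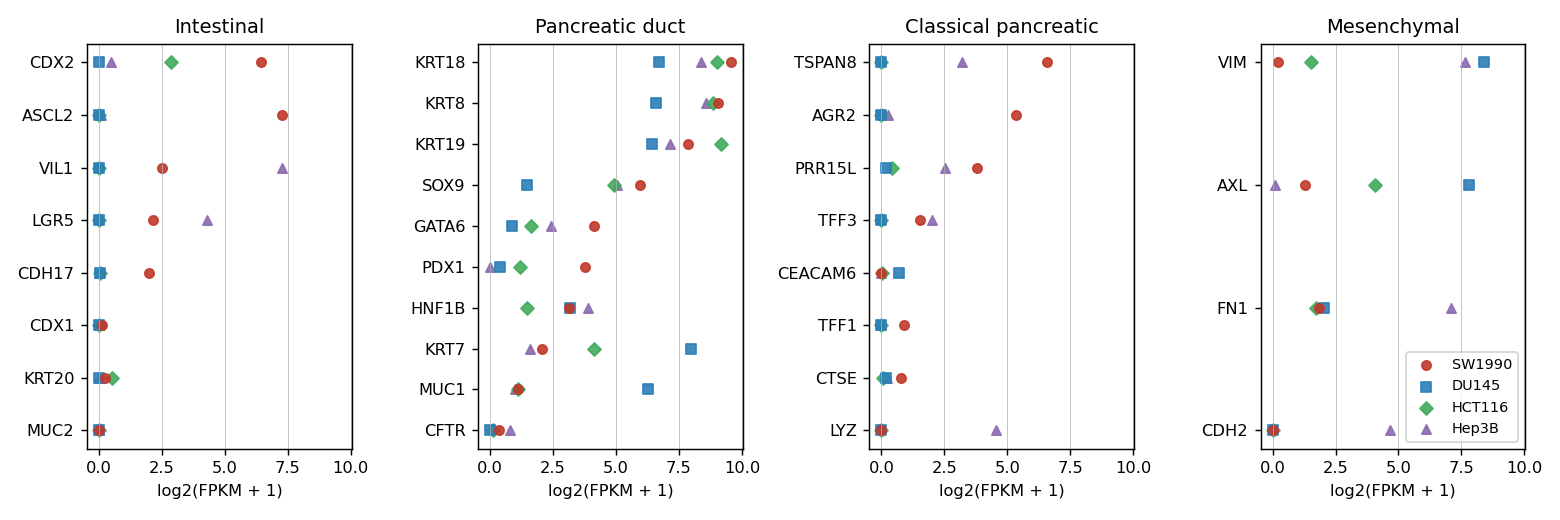
Input level as log2(FPKM + 1) (x axis) of marker genes (rows) in the 4 cell lines, 1 symbol per library, for intestinal, pancreatic duct, classical pancreatic, and mesenchymal genes. CDX2, ASCL2, TSPAN8, and AGR2 stand far to the right in SW1990 cells, while KRT7 and MUC1 are highest in DU145 cells.

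Hepatocyte markers set Hep3B cells apart, and none was high or low in SW1990 cells by the 4-fold rule. Prostate markers were similar to those of the other lines. Of 20 hepatocyte genes, 19 were expressed in some input, all with their highest level in Hep3B cells, and 1 reached 1 FPKM in SW1990 cells (VTN, 1.28 FPKM). Albumin was at 0.938 FPKM in SW1990 cells, 0.0571 in DU145, 0.291 in HCT116, and 5030.1 in Hep3B. The list summed to 4.45 FPKM in SW1990, 18 in DU145, 2.69 in HCT116, and 18270.2 in Hep3B cells. The median difference was -2.71 from a mean that includes Hep3B cells. Of 10 prostate genes 6 were expressed, with no high or low member and a median of 0.17. KLK3 was under 1 FPKM in all 4 inputs, DU145 cells included. HOXB13, a posterior HOX gene used as a prostate marker, stood at 3.99 FPKM against 0, 3.56, and 0. On the list of 22 endoderm transcription factors, 20 were expressed, PDX1 and CDX2 were high, none was low, and the median was -0.06. HNF4A, a liver and gut factor, was at 6.23 FPKM against 0, 0.915, and 53.2, and ONECUT1 was at 0 in SW1990 and at 36.4 FPKM in Hep3B cells. Blood cell markers (4 of 12 expressed) and fibroblast and endothelial markers (6 of 14 listed, 13 of them in the tables) had no high or low member, with medians of -0.30 and -0.80. PTPRC, CD3E, COL3A1, and VWF were under 1 FPKM in every input.

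By a rule set for this comparison, the 20 protein-coding genes with the largest gap to the nearest other input, and the same direction in RIP, were taken as the leading high genes. After ASCL2 came TMEM52B, a membrane protein, with 97 FPKM in SW1990 cells, 0 in DU145, 0.00769 in HCT116, and 0.164 in Hep3B. OLR1, a lectin-like receptor for oxidized lipoprotein and its neighbor, had 40.4 FPKM against 0 in each other line. Against a floor of 3 fragments per library OLR1 was at least 982-fold higher. TMEM52B and OLR1 carry 1 shared locus in the tables, so the authors' counting may have divided reads between them. HIST1H1D, a linker histone, had 382 FPKM against 6.63, 0.0582, and 1.41, and SMIM22, a small membrane protein, had 86.5 FPKM against 0.76, 1.07, and 0.367. Claudin 2 (CLDN2), which forms cation channels in leaky epithelia such as those of the crypt, had 68.8 FPKM against 0.205, 0.859, and 0.333.

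Other leading high genes have roles in secretion, detoxification, and signaling. IGFL4 and IGFL2, small secreted proteins of the insulin growth factor-like family, had 39.7 FPKM against 0, 0.0862, and 0 and 25.6 FPKM against 0, 0.0717, and 0. ALDH3A1, an aldehyde dehydrogenase, had 51.3 FPKM against 0.178, 0.693, and 0.0723 and was higher still in SW1990 RIP, at 226 FPKM. LY6G6D, a surface antigen described in colorectal tumors, had 32.4 FPKM against 0, 0.101, and 0. CADPS, a factor of dense-core vesicle release, had 34.6 FPKM against 0.00742, 0.0109, and 0.658, and KCNE3, a potassium channel subunit of intestinal epithelium, had 21.7 FPKM against 0.0105, 0, and 0.10. MT1A, a metallothionein of a multigene family, had 179 FPKM against 7.87, 0.332, and 0. The rule that chose these genes required SW1990 input and SW1990 RIP to exceed every other library of the same kind.

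**Figure D3:**
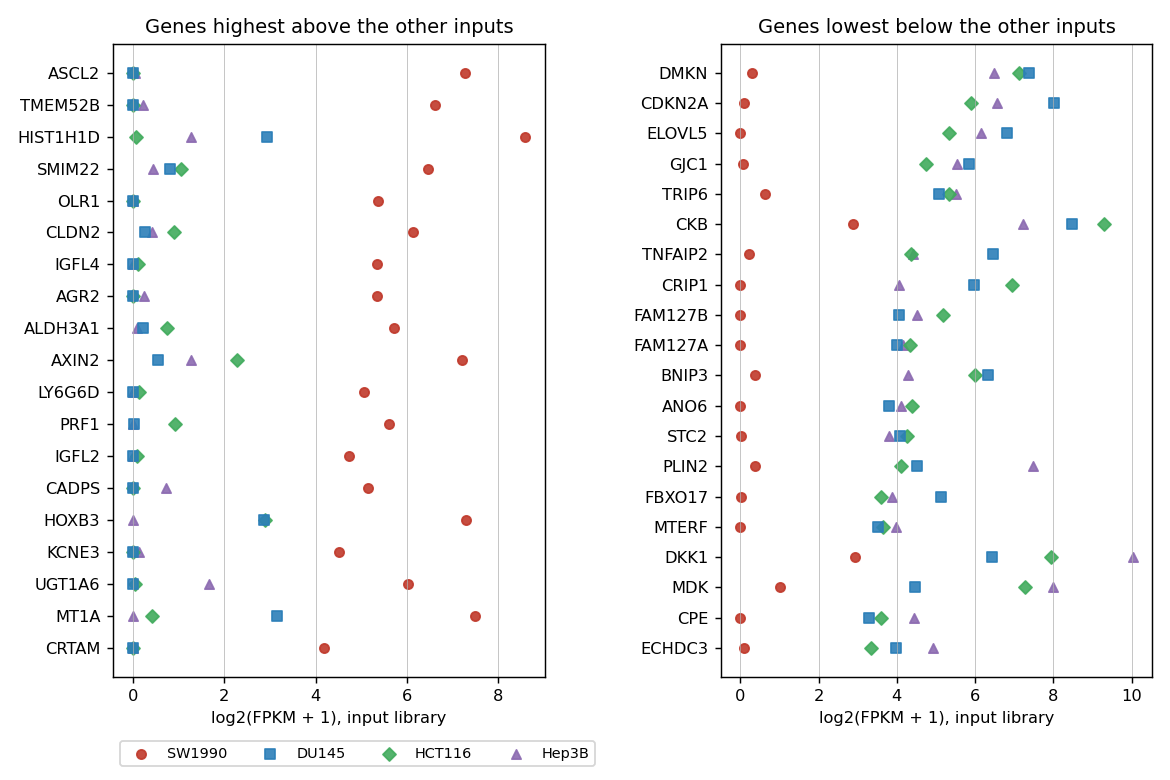
Input level as log2(FPKM + 1) (x axis) in the 4 cell lines for 19 of the 20 leading high genes (left) and the 20 leading low genes (right), 1 symbol per library. SW1990 cells lie to the right of all other lines on the left panel and to the left of all on the right panel, with ASCL2 and DMKN the widest gaps.

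Several Wnt targets and feedback genes were high. From a list of 22 such genes, put together after the values were seen, 21 were expressed, 6 were high (1.5% of all expressed genes), 1 was low (0.555%), and 14 lay above all 3 other lines (29.9%). The median difference was 1.87. AXIN2, the scaffold of beta-catenin degradation and a general Wnt target, had 146 FPKM in SW1990 cells, 0.47 in DU145, 3.85 in HCT116, and 1.4 in Hep3B. In RIP it had 496 FPKM in SW1990 cells, 1.28 in DU145, 10.4 in HCT116, and 3.48 in Hep3B. LEF1, a partner of beta-catenin on DNA, had 15.5 FPKM against 0, 0, and 0.904. APCDD1 and SP5, a membrane inhibitor and a repressor within the pathway, had 23.8 FPKM against 0.713, 0.00449, and 0.00601 and 14.6 FPKM against 2.79, 0.644, and 1.92. BMP4, a growth factor of the TGF-beta family, was abundant, with 399 FPKM against 0.219, 49.7, and 11.6. Several genes lay above all other lines by less than 4-fold. RNF43, a ubiquitin ligase that removes Wnt receptors, had 143 FPKM against 1.38, 29.8, and 39.1. Its relative ZNRF3 had 12.8 FPKM against 4.33, 4.02, and 7.06, TCF7 had 20.9 FPKM against 3.17, 9.09, and 4.08, and the homeobox gene MSX1 had 85.7 FPKM against 0.373, 59, and 2.28. The low gene was DKK1, a secreted Wnt antagonist, with 6.66 FPKM in SW1990 cells, 85.1 in DU145, 245 in HCT116, and 1044 in Hep3B. LGR5, NOTUM, TNFRSF19, CCND1, and MYC were higher in another line than in SW1990 cells.

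HOX genes were high in the A and B clusters. Of 39 HOX genes, 30 were expressed, 23 of them in SW1990 cells. HOXA5, HOXA13, HOXB3, HOXB5, HOXB6, and HOXB9 were high, 6 in all. None was low, and 20 lay above all 3 other lines (29.9% of all expressed genes did), with a median difference of 1.67. HOXB3 had 154 FPKM in SW1990 cells, 6.29 in DU145, 6.45 in HCT116, and 0 in Hep3B, and HOXB9 and HOXB6 had 109 FPKM against 9.88, 10.01, and 0.018 and 122 FPKM against 11.7, 11.7, and 0. HOXA13, the most posterior gene of its cluster, had 51 FPKM against 0.391, 5.54, and 0. HOXA9 had 108 FPKM against 2.24, 66.6, and 0.448, so HCT116 cells carried it as well. Summed over the list, HOX genes reached 933 FPKM in SW1990, 181 in DU145, 253 in HCT116, and 50.03 in Hep3B cells. The anterior genes HOXA2 and HOXA3 lay between or below the others, at 0.966 FPKM against 2.13, 0.351, and 1.52 for HOXA2 and 10.02 FPKM against 41, 12.1, and 19.3 for HOXA3. HOXC9, HOXC10, and HOXC13 were lower in SW1990 cells than in DU145 and HCT116 cells, and Hep3B cells listed them at 0. EVX1, the homeobox gene beside the HOXA cluster, was high at 3.57 FPKM against 0, 0.0442, and 0. The plot of the 4 clusters shows these levels gene by gene.

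**Figure D4:**
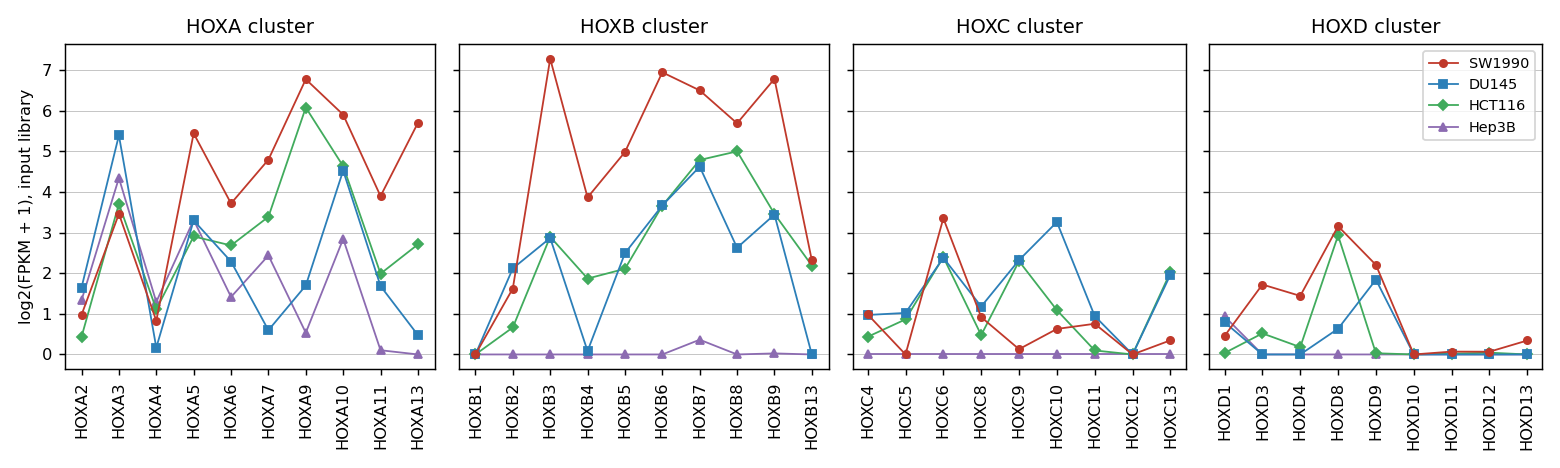
Input level as log2(FPKM + 1) (y axis) of the HOX genes shown, in cluster order (x axis), 1 panel per cluster and 1 line per cell line. SW1990 cells lie above the other lines from HOXA5 to HOXA13 and from HOXB3 to HOXB13, where HOXB13 is close to HCT116, but not for HOXA2 to HOXA4, HOXB2, or most HOXC genes.

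In a few places high genes were neighbors in the order of expressed protein-coding genes. Groups of at least 3 had been planned, and groups of 2 were added. Among expressed protein-coding genes in chromosome order, 9 groups of at least 2 neighbors were high and 1 group was low, of which 3 high groups had 3 genes. PDX1, CDX2, and URAD, neighbors on chromosome 13 between 28407580 and 28562791 in hg19, were 1 such group. PDX1 and CDX2 belong to the ParaHox cluster, a relative of the HOX clusters. URAD, an enzyme of urate breakdown, had 5.52 FPKM against 0 in each other line, at least 44.8-fold above the floor of the others. HOXB6, HOXB5, and HOXB3 were another group, but they carry 1 shared locus, so reads may have been divided among them. UGT1A6, UGT1A8, and UGT1A1 were the third, but these glucuronosyltransferases share exons and 1 locus, so reads cannot be assigned to one of them with certainty. UGT1A6 had 63.9 FPKM against 0, 0.0316, and 2.18. From a list of 9 UGT1A names chosen after the values were seen, 5 were expressed and 4 were high (1.5% of all expressed genes were). The pairs were TMEM52B and OLR1, IGFL4 and IGFL2, BMP4 and CDKN3, ZNF540 and ZNF571, HOXA13 and EVX1, and KCNV1 and TRPS1. ZNF540 and ZNF571 carry 1 shared locus, as do TMEM52B and OLR1. KCNV1 and TRPS1 lie far apart, between 110975873 and 116821899 on chromosome 8. The low pair, FAM127A and FAM127B, consists of near-identical copies, so its reads may be shared.

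Epithelial genes were mostly abundant in SW1990 cells, and several mesenchymal genes were near 0. All 22 epithelial genes were expressed, 11 of them above all 3 other lines (29.9% of all expressed genes were), 3 below all (18.7% of all expressed genes), and none past 4-fold against each, with a median of 1.10. EPCAM, an epithelial adhesion molecule, had 402 FPKM in SW1990 cells, 67 in DU145, 111 in HCT116, and 369.6 in Hep3B. RAB25, a GTPase of epithelial recycling, had 143 FPKM against 0.139, 103, and 0.28, and CLDN7 had 80.1 FPKM against 6.08, 86.1, and 0.045, both near their level in HCT116 cells. CDH1 (E-cadherin) had 26.2 FPKM against 32.7, 8.4, and 40.8 and was therefore not highest in SW1990 cells. Of 16 mesenchymal genes 13 were expressed, with no high or low member and a median of -1.14. Vimentin (VIM) was at 0.147 FPKM against 336, 1.91, and 198, AXL at 1.44 FPKM against 225, 15.7, and 0.0612, and fibronectin (FN1) at 2.54 FPKM against 3.14, 2.32, and 135. PRRX1, a mesenchymal homeobox factor, ran against this at 14.6 FPKM against 0.18, 0.020, and 12.2, and S100A4, a calcium-binding protein of motile cells, had 60.2 FPKM against 17.6, 147, and 5.03. Summed over the list, SW1990 cells had 84.4 FPKM, DU145 649, HCT116 181, and Hep3B 578.

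Cell surface and glycan genes varied one by one. Claudins had 11 of 16 genes expressed and 1 high member, CLDN2, with a median of 0.88, and claudin 1 was at 1.72 FPKM against 29.2, 0.10, and 479. Keratins had 10 of 19 expressed, none high or low, and a median of 0.29. Mucins had 4 of 14 expressed, none above 2.29 FPKM in SW1990 cells, and a median of 0.23. Of 29 enzymes that build mucin-type and Lewis glycans, 22 were expressed, 1 was high, and 1 was low, with a median of 0.19. FUT3, the fucosyltransferase of Lewis antigens, had 12.4 FPKM in SW1990 cells, 0.105 in DU145, 0.138 in HCT116, and 0.389 in Hep3B, while FUT5 and FUT6 were under 1 FPKM throughout. The low enzyme was ST6GAL1, which adds terminal sialic acid to N-glycans, at 0.0131 FPKM against 8.18, 6.67, and 72.1. Among 13 ERBB ligands and receptors, 11 were expressed, none high or low, with a median of -0.26. EREG had 107 FPKM against 73.1, 93.7, and 34.7, and EGFR 8.04 FPKM against 39.2, 9.64, and 44.4.

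The leading low genes were abundant in the other 3 lines. DMKN, an epidermal secreted protein, had 0.219 FPKM in SW1990 cells, 166 in DU145, 138 in HCT116, and 87.6 in Hep3B. CDKN2A, a gene of cell cycle inhibition, had 0.0669 FPKM against 257, 58, and 93.5, counted over the gene as a whole. Its SW1990 value rests on 2 fragments, with an exact 95% Poisson interval of 0.0081 to 0.242 FPKM for counting error, and it was listed at 0 in SW1990 RIP. ELOVL5, an elongase of polyunsaturated fatty acids, had 0 FPKM against 111, 39.1, and 69.9. No ELOVL5 fragment was found in SW1990 input, where a floor of 3 fragments would be 0.0413 FPKM, so it was at least 946-fold lower than in HCT116 cells. SW1990 RIP listed ELOVL5 at 0 as well. Of the 85 low protein-coding genes, 59 had under 1 FPKM in SW1990 cells, 26 had under 3 fragments, and 16 had none.

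The other leading low genes include several of cell adhesion, metabolism, and stress. GJC1, a gap junction protein, had 0.0462 FPKM in SW1990 cells, 56.6 in DU145, 25.7 in HCT116, and 45 in Hep3B, and TRIP6, a LIM protein of focal adhesions, had 0.544 FPKM against 32.7, 39.3, and 44.6. CKB, the brain-type creatine kinase, had 6.3 FPKM against 355, 631, and 148, so it was still detected. TNFAIP2 had 0.166 FPKM against 86.1, 19.6, and 20.2, and CRIP1, another LIM protein, had 0 FPKM against 62, 121, and 15.7. BNIP3, a mitophagy factor that responds to hypoxia, had 0.298 FPKM against 78.9, 63.2, and 18.5. ANO6, a phospholipid scramblase, had 0 FPKM against 13, 19.7, and 16.1 and was at least 902-fold lower. PLIN2, a lipid droplet coat protein, had 0.294 FPKM against 21.8, 16.1, and 177, with Hep3B cells highest. STC2, FBXO17, MTERF, CPE, and ECHDC3 were each under 0.1 FPKM in SW1990 cells. MDK, a heparin-binding growth factor, had 1.01 FPKM against 20.9, 154, and 251. FAM127B and FAM127A had no fragment in SW1990 cells.

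Low genes beyond the first 20, named after their values were seen, included genes of adhesion, signaling, and lipid synthesis. Moesin (MSN), which links actin to the membrane, had 0.0332 FPKM in SW1990 cells, 47.3 in DU145, 27 in HCT116, and 7.72 in Hep3B. FERMT2, PARVB, and ITGA5, which act at integrin adhesions, had 0.0514 FPKM against 16.9, 9.23, and 8.01, 0.0425 FPKM against 12, 11.3, and 8.33, and 1.66 FPKM against 21.9, 10.1, and 11.8. WWTR1 (TAZ), a Hippo pathway effector, had 1.33 FPKM against 48.2, 23.9, and 14.9, and its antisense RNA WWTR1-AS1 had 1.1 FPKM against 24.3, 21.2, and 16.1. Their reads cannot be told apart where the counting did not use strand, which is not given in the sources used here. SCD, the stearoyl-CoA desaturase, had 29.1 FPKM against 326, 219, and 219. NR3C1, the glucocorticoid receptor, had 0.123 FPKM against 26.5, 10.7, and 9.31, and EPAS1, a hypoxia-inducible factor, had 0.895 FPKM against 14.6, 15.1, and 28. SMO, the Hedgehog transducer, had 0 FPKM against 6.78, 6.41, and 13.6 and no fragment in SW1990 cells.

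The low level of CDKN2A did not extend evenly over chromosome 9p21. Of 12 genes listed from this region, 11 were in the tables and 10 were expressed, 1 was low (CDKN2A) and 1 was high (MLLT3), with a median of -0.62. CDKN2B, the neighboring inhibitor, had 0.206 FPKM in SW1990 cells, 9.53 in DU145, 2.7 in HCT116, and 6.34 in Hep3B, and the antisense RNA CDKN2B-AS1 had 0.0124 FPKM against 2.24, 0.911, and 2.77. DMRTA1 and C9orf53 were at 0 in SW1990 cells and at no more than 1.29 FPKM elsewhere. MTAP, a salvage enzyme that lies next to CDKN2A, had 31.3 FPKM against 26.4, 116, and 25.4, and KLHL9 and MLLT3 had 35.3 FPKM against 6.71, 8.38, and 15.1 and 22.4 FPKM against 2.41, 4.66, and 1.47. RNA levels were measured and gene copies were not. Among 15 genes often altered in pancreatic cancer, all were expressed, CDKN2A was low, none was high, and the median was 0.01. SMAD4 had 22.2 FPKM against 41.1, 54.8, and 56.9.

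Genes of detoxification and defense varied individually. Of 20 targets of NRF2, a factor of the antioxidant response, 17 were expressed, ALDH3A1 was high, none was low, and the median was 0.09. NQO1 had 431 FPKM in SW1990 cells, 466 in DU145, 272 in HCT116, and 4.23 in Hep3B, and TXNRD1 108 FPKM against 429, 299, and 37.8. GSTM3 and GSTM4, glutathione transferases of a multigene family that were named after their values were seen, were high at 254 FPKM against 12.9, 0.00454, and 57.9 and 98.2 FPKM against 6.31, 8.49, and 11.5. Interferon-induced genes had 15 of 20 expressed, 7 below all other lines (18.7% of all expressed genes were), none high or low, and a median of -0.49. IFIT3 had 0.00935 FPKM against 5.17, 0.591, and 0.246, while ISG15 had 165 FPKM against 28.4, 136, and 21.7. Chemokines and cytokines had 19 of 26 listed genes expressed, none high or low, and a median of -0.30. IL8 had 0.243 FPKM against 37.4, 1.55, and 143, CSF1 1.43 FPKM against 94.9, 1.66, and 3.13, and MIF 2175 FPKM against 572, 1170.2, and 997. Proteases and their inhibitors had 22 of 29 expressed, 1 high and none low, and a median of 0.54. KLK6, a kallikrein, had 66.9 FPKM against 0, 9.02, and 0, and PLAU, the urokinase, had 4.87 FPKM against 200.1, 19.1, and 1.06.

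A few genes better known from cytotoxic lymphocytes were high in SW1990 cells. PRF1, the pore-forming protein perforin, had 47.5 FPKM in SW1990 cells, 0.0128 in DU145, 0.894 in HCT116, and 0 in Hep3B, and 263 FPKM in SW1990 cells, 0.404 in DU145, 2.97 in HCT116, and 0 in Hep3B in RIP. CRTAM, an adhesion receptor of activated T and natural killer cells, had 17.2 FPKM against 0.00742, 0.00865, and 0.0118, and CST7, a cystatin of immune cells, had 18.4 FPKM against 0.0397, 0, and 0.163. From a list of 15 cytotoxic genes chosen after the values were seen, 6 were expressed. Of these, 4 were high (1.5% of all expressed genes were), the fourth being SLAMF6 at 3.84 FPKM against 0, 0.00688, and 0. GZMB had 1.12 and CD8A 1.02 FPKM in SW1990 cells. PTPRC, CD3E, CD2, GNLY, NKG7, and GZMA, which such cells also carry, were under 1 FPKM in all 4 inputs.

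Among the long noncoding RNAs, 10 were high, some of them beside high HOX genes. The 5 with the largest gap were AFAP1-AS1, HOXB-AS3, HOTTIP, SNHG18, and HOXB-AS4. AFAP1-AS1 had 164 FPKM in SW1990 cells, 0.681 in DU145, 0.0913 in HCT116, and 0.257 in Hep3B and 45632 fragments in SW1990 cells. HOXB-AS3 had 158 FPKM against 2.84, 2.85, and 0, and HOTTIP, transcribed beside HOXA13, had 18.7 FPKM against 0, 0.0348, and 0. The locus of HOXB-AS3 is shared by 9 genes, HOXB3 among them, and that of HOTTIP by 2. The authors' counting may have divided reads between such genes, so HOXB-AS3 and HOXB3 are not separate observations with certainty. SNHG18 had 10.9 FPKM against 0 in each other line and was at least 201-fold higher than the floor. All 10 high long noncoding RNAs lay above every other line in RIP. Of the 13 high miRNA names, RIP lay above all others for 3 and passed 4-fold for none. MIR200C and MIR429, miRNAs of an epithelial family, had 44.7 and 17.3 FPKM but 1 fragment each, since the length of the gene model scales FPKM.

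Genes that SW1990 cells shared with 1 other line were sought with the same 4-fold limit. SW1990 and HCT116 cells together lay at least 4-fold above both other lines for 81 genes (0.398% of expressed genes) and below both for 132 (0.648%). With DU145 cells the numbers were 62 (0.304%) and 35 (0.172%), and with Hep3B cells 65 (0.319%) and 88 (0.432%). RAB25 led the protein-coding genes shared with HCT116 cells, followed by HOXA9 and IGFBP2, an insulin-like growth factor binding protein at 72.4 FPKM against 1.87, 54.4, and 0.234. The glutathione transferase GSTP1 had 1010.4 FPKM against 63.8, 794, and 0.284. CADM1, a cell adhesion molecule, led those shared with DU145 cells at 25.3 FPKM against 37.6, 0, and 0.0954. C4BPB, a complement regulator, led those shared with Hep3B cells at 44.2 FPKM against 0.0717, 0, and 28.9. Across the 20367 expressed genes, Pearson's r of log2(FPKM + 1) with the SW1990 input was 0.863 for HCT116, 0.821 for DU145, and 0.752 for Hep3B inputs. Genes are not independent replicates, and these values share the gene models and the depth of the libraries.

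Chromosomes differed little in their typical gene. The median difference between SW1990 cells and the mean of the others over expressed protein-coding genes was largest for chromosome 13 at 0.38 (228 genes) and chromosome 16 at 0.29 (619 genes). It was lowest for chromosome 18 at -0.31 (186 genes) and chromosome 4 at -0.12 (504 genes), beside 0.06 over all. For chromosome 13 the medians against DU145, HCT116, and Hep3B cells were 0.49, 0.30, and 0.32. For chromosome 18 they were -0.39, -0.06, and 0.01, so it was lowest against DU145 cells. For chromosome 16 they were 0.14, 0.20, and 0.58, so it was largest against Hep3B cells. For chromosome 4 they were 0.01, 0, and -0.21, so the median was below 0 against Hep3B cells only. In RIP the medians were 0.14 for chromosome 13, 0.37 for chromosome 16, and -0.27 for chromosome 18. Chromosome 13 held 7 high genes, 3.07% of its expressed protein-coding genes, against 0.793% over all. These 7 include the neighbors PDX1, CDX2, and URAD and the entry listed as LSP1, which had under 10 fragments.

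The promoters of the called genes were compared in RefSeq sequence (GRCh38.p14, a newer build than that of the deposited tables). The 250 bases before the first start listed for a gene were used, and 67 of the 107 high and 58 of the 85 low protein-coding genes had an entry, as did 10228 of the expressed protein-coding genes. CpG islands are stretches rich in the dinucleotide CG, and promoters without one are common among tissue-restricted genes. The ratio of observed to expected CG was at least 0.6 in 34 of the 67 high promoters (50.7%), 45 of the 58 low promoters (77.6%), and 79.0% of all expressed promoters. Over all 27305 RefSeq promoters, expressed or not, it was 47.4%. Low genes had to be expressed in the other lines, and among protein-coding genes with at least 3 FPKM in each other input the share was 87.6%. Promoters of CDX2 and CLDN2 (high) and of ELOVL5 and CDKN2A (low) are shown because they span this range, with CG in capitals and the base next to the start at the right end. They lie at chr13:27969316-27969565 (minus strand), chrX:106899914-106900163 (plus strand), chr6:53348951-53349200 (minus strand), and chr9:21995325-21995574 (minus strand).
CDX2: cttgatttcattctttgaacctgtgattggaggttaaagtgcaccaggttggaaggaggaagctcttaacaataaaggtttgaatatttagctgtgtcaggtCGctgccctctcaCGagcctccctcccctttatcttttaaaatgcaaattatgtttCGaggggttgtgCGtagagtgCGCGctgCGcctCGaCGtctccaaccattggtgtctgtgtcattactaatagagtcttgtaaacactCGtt
CLDN2: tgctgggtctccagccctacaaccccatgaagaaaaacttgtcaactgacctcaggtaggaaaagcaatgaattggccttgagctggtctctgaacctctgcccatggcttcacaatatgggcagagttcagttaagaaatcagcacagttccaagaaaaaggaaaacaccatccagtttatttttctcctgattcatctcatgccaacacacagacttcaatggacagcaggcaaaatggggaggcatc
ELOVL5: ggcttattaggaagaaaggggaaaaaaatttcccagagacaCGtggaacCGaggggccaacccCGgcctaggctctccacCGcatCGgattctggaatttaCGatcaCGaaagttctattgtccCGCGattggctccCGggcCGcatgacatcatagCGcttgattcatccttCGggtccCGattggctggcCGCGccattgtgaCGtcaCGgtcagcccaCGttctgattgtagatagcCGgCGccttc
CDKN2A: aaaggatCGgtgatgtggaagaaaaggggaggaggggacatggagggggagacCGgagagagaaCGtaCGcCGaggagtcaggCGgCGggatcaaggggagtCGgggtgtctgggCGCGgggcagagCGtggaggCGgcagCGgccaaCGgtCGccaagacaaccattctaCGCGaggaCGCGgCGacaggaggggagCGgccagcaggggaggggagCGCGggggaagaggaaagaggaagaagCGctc
The CDX2 promoter holds 10 CG at an observed to expected ratio of 0.785, above the limit of 0.6, and that of CLDN2 holds none. The ELOVL5 and CDKN2A promoters hold 21 and 24, at observed to expected ratios of 1.07 and 1.08. RefSeq lists 2 starts for CLDN2 and for CDKN2A, and which start the cells used was not measured.

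**Figure D5:**
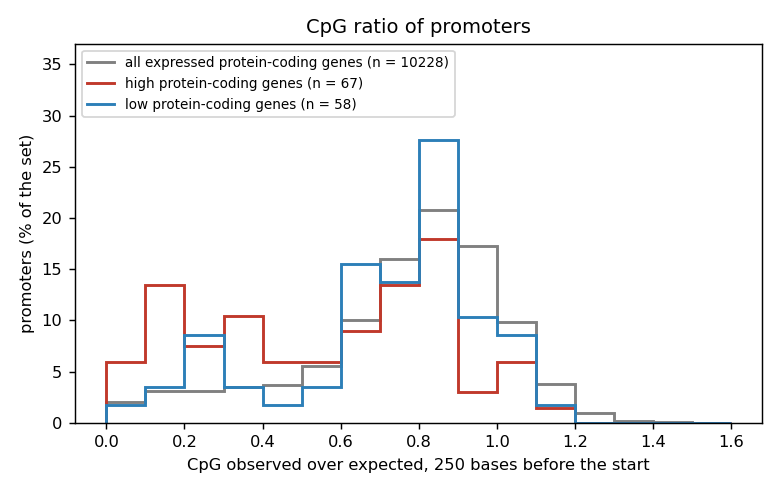
Distribution of the ratio of observed to expected CG (x axis, no unit, bins of 0.1) in the 250 bases before the start, as percent of promoters in each set (y axis), for all expressed, high, and low protein-coding genes. The high set has 50.7% of its promoters at 0.6 or above, against 79.0% of all expressed genes.

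Short motifs were searched in these windows on both strands, and both were chosen after the values were seen. TTTATNG, the core of sites described for CDX proteins, occurred in 13 of the 67 high promoters (19.4%), in 4 of the 58 low promoters (6.90%), and in 5.54% of all expressed promoters. CTTTGAA or CTTTGAT, the core of sites described for TCF and LEF proteins, occurred in 6 high promoters (8.96%), in 2 low ones (3.45%), and in 3.52% of all expressed ones. Over all 27305 RefSeq promoters the shares were 9.29% and 6.03%. The 2 motifs were counted separately. The median GC content was 61.2% in the high and 65.2% in all expressed promoters, and its part in the motif shares was not tested. In the CDX2 promoter TTTATNG lies on the minus strand at bases -181 to -175 and the CTTTGAA or CTTTGAT match on the plus strand at -238 to -232, counted from the start. A match describes the letters in a window and shows no binding.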

How the data were processed

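Input RNA and RPS6-bound RNA of SW1990, DU145, HCT116, and Hep3B cells were sequenced as total RNA, with 1 library of each kind per line. Per the submitters' processing notes, reads were handled with CASAVA 1.8 and aligned with TopHat2 2.0.9 to hg19. The counting tool, the annotation release, and the use of strand are not given in the sources used here. The deposited FPKM values, which the authors computed in 2 tables of 4 libraries each, were used as they stand, with values under 0.0001 set to 0. The deposited estimated counts (expected counts per gene, scaled by the authors between libraries of a table) served for depth. Dividing them by the value of 1 fragment gave whole numbers for 92.2% to 93.8% of values above 0, with a tolerance of 0.01 fragment, and 34630349 to 54209614 fragments per library. The exact 95% Poisson intervals and the floor of 3 fragments cover counting error only. Fragments are not independent molecules after PCR.

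Groups came from the sample titles. Genes with at least 1 FPKM in any input were compared after adding a pseudocount of 1 FPKM and taking log2, so that fold changes of low genes are understated. A gene was called at 4-fold against each of the 3 other inputs, and no test was run because each group has 1 library. Named genes were the 20 protein-coding genes furthest above and the 20 furthest below the nearest other input with the same direction in RIP, the 5 leading long noncoding RNAs, expressed members of the gene lists, and groups of neighboring called genes. A few genes that the rule names are not reported here. Genes outside this rule were named after their values were seen. The genes, the 27 lists, and the calling rule were chosen with earlier results of these data known, and 3 further lists (Wnt targets, UGT1A enzymes, cytotoxic genes), the motifs, and the promoters shown were chosen after the values were seen. Coordinates are the loci of the tables, which join overlapping genes, and the tables do not say whether a start counts from 0 or from 1. Alternatives covered the pseudocount, the fold, the minimum level, the scaling (TMM factors from edgeR 4.0.16 in R 4.3.3), the unit, and each other line left out. Scripts ran in Python 3.11.15 with pandas 2.3.3 and SciPy 1.17.1 and were tested on simulated data.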

Additional observations from a re-analysis of the deposited data

Results flagged for a closer look

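For 2 called genes with at least 10 fragments, the input and the RIP libraries of SW1990 cells pointed in opposite directions, and the difference between both kinds of library was not tested. RP1-292B18.1, a gene with no RefSeq symbol, had 36.4 FPKM in SW1990 cells, 3.24 in DU145, 8.08 in HCT116, and 7.64 in Hep3B in the inputs and 3.09 FPKM in SW1990 cells, 3.55 in DU145, 3.38 in HCT116, and 4.67 in Hep3B in RIP. It was thus high in the SW1990 input, while SW1990 RIP lay below every other RIP, by -0.10 (-0.0982) on the log2(FPKM + 1) scale against the lowest. SCARNA2, a small Cajal body RNA, had 6.26 FPKM in SW1990 cells, 54.2 in DU145, 40.8 in HCT116, and 156 in Hep3B in the inputs and 14.5 FPKM in SW1990 cells, 8.66 in DU145, 3.03 in HCT116, and 11.4 in Hep3B in RIP. It was low in the SW1990 input, and SW1990 RIP lay above the highest other RIP by 0.319 on the same scale.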

How the results depend on the processing

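The number of called genes depended on the setting. From 306 high and 113 low genes, a pseudocount of 0.1 FPKM gave 619 and 436, a 2-fold limit 1308 and 449, and an 8-fold limit 126 and 40. Estimated counts scaled to depth only (CPM) gave 204 and 191, of which 149 and 100 were among the genes called on FPKM, so that high genes made up 51.6% of calls in place of 73.0%. With a pseudocount of 0.1 FPKM they made up 58.7%. Among protein-coding genes high calls were 55.7%, and 45% and 46.3% with these settings. Leaving out 1 other line can only add calls, and gave 420 to 598 high and 185 to 320 low genes. Without HCT116 cells there were 598 and 320, without Hep3B cells 239 low, and without DU145 cells 185 low genes. The last settings were chosen after seeing the data. Protein-coding genes alone gave 107 high genes, and comparison with DU145 cells alone, whose values share a table with those of SW1990 cells, gave 985 high and 1153 low genes.

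Against single lines, a pseudocount of 0.1 FPKM gave 2012 genes at least 4-fold above and 2453 below DU145 cells, in place of 985 and 1153. It gave 2052 and 1546 against HCT116 cells (846 and 667) and 2896 and 2965 against Hep3B cells (1460 and 1464). The median of endoderm transcription factors was 0.26 with that pseudocount and -0.06 without, and that of pancreatic cancer driver genes was -0.0218 after centering and 0.01 before. Centering moved the median of all expressed protein-coding genes by -0.0272 as well. The cause of the change with the pseudocount was not tested. TMM factors shifted the median of protein-coding genes by -0.11. All 45 leading genes stayed past 4-fold with a pseudocount of 0.1 FPKM, with TMM factors, and with CPM. No paired analysis was possible because each group has 1 library. Depth limits the genes with under 10 fragments, which 101 of the high genes were.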

Other observations

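Some high genes encode parts of the basic machinery of the cell and were present in all 4 lines. They were chosen after their values were seen. RPL35, a protein of the large ribosomal subunit, had 6959.5 FPKM in SW1990 cells, 1346 in DU145, 1464 in HCT116, and 539 in Hep3B, and the RIP values were 2165 FPKM in SW1990 cells, 1269 in DU145, 752 in HCT116, and 785 in Hep3B. RPL27A and RPL27, of the same subunit, had 4238 FPKM against 747, 802, and 532 and 1260.3 FPKM against 229, 254, and 201. LSM3, a part of the RNA splicing machinery, had 84.6 FPKM against 12.1, 14.3, and 17.1, and HSPB11, a protein of intraflagellar transport, had 236 FPKM against 31.3, 21.9, and 18.8. All 5 lay above every other line in RIP as well, but there RPL27 was at 147 FPKM against 124 in Hep3B cells. Ribosomal protein genes have processed copies of near-identical sequence, so their values are uncertain.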
